A study of Mus musculus with 8 samples.

Results

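Dpp4+ Pi16+ cells of mouse inguinal white fat were examined in droplet single-cell RNA libraries from mice fed ad libitum (Ad-Lib) or restricted to 2 meals a night (TAN). The cells were chosen by their own reads. A cell had to hold at least 10 unique molecular identifiers (UMIs, each standing for 1 captured RNA molecule) summed over the stromal genes Pdgfra, Col1a1, Col3a1 and Dcn, at least 3 UMIs summed over Pi16 and Dpp4, and none of Gdf10, of the leukocyte gene Ptprc, of the endothelial gene Pecam1 or of the B cell gene Cd79a. Of 36370 cells that passed the limits on depth and mitochondrial share, 2660 met this rule, which is 7.31% of all cells kept and 27.9% of the 9541 stromal cells. A stromal cell here is one that passed the 4-gene sum and lacked the 3 excluded genes. The 8 libraries gave 663, 385, 219 and 281 such cells in Ad-Lib replicates 1, 3, 5 and 7 and 357, 336, 165 and 254 in TAN replicates 2, 4, 6 and 8.

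Dpp4+ Pi16+ cells are known as interstitial progenitors. They lie in the connective tissue that surrounds fat lobules, divide, and give rise to preadipocytes that are committed to the fat lineage and carry Icam1. A further stromal population that carries F3 and Gdf10 is known to restrain adipocyte formation in its neighbours.

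Both groups were C57BL/6 mice by the labels (C57BL/6J in the study's text) with no genetic change named, and the labels give an age of 8 weeks for all of them. The study describes older male mice that had been fed for months, so the age is not certain. The study also describes group housing, regular chow and a modestly lower food intake under TAN. By its account TAN mice ate in 2 nocturnal windows and were killed after the first. The tissue was the stromal vascular fraction, which is digested fat without its floating adipocytes, and the labels do not say how many mice went into a library. The study's methods count as many mice as libraries in each group, and its results speak of a plot split by animal replicate. Neither states outright that each library was a separate mouse. Where it was not, the p-values measure only the spread between these samples.

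The libraries held 44427 barcodes in all, with 4475 to 8021 barcodes and 25320800 to 37140950 UMIs in a single library. The Dpp4+ Pi16+ cells contributed 1137533 (TAN replicate 6) to 5957658 UMIs (Ad-Lib replicate 1) per library. Their median depth lay between 7911 and 9648 UMIs, and TAN replicates 4 and 6 had the lowest medians. The mean of these medians was 9298 ± 355 UMIs in Ad-Lib and 8482 ± 720 in TAN (SD, n = 4 each, exact permutation p = 0.114, two-sided). The median mitochondrial share of these cells averaged 1.65% ± 0.254 in Ad-Lib and 1.91% ± 0.216 in TAN (SD, n = 4 each, exact permutation p = 0.143). No barcode of a Dpp4+ Pi16+ cell occurred in a second library, whereas 351 of all cells kept had a barcode that another library held too.

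The Pi16 and Dpp4 counts chose the cells and are given as a description. Pi16, a peptidase inhibitor of fibroblasts, carried most of the reads, with a median of 19 UMIs per cell against 3 for Dpp4, a surface dipeptidase. Both genes were seen in 2357 of the 2660 cells, Pi16 without Dpp4 in 290 and Dpp4 without Pi16 in 13. Summed per library, Pi16 lay at 2401 to 3263 CPM (a gene's share of all counts of the class in a library, put on a common scale) and Dpp4 at 388 to 528 CPM. In single-cell 3' libraries a transcript gives reads at its 3' end, so CPM is compared here between classes for 1 gene and not between genes. At the threshold, 124 cells held exactly 3 Pi16 and Dpp4 UMIs and 73 held 4, while 112 stromal cells without Gdf10 held 2 and were left out. The cells at 3 UMIs had a median depth of 2499 UMIs and those at 2 had 1969, against 9174 for cells with 5 or more. The marker Anxa3 lay at 507 CPM in cells with 3 UMIs, at 404 CPM in cells with 2, and at 43.9 CPM in stromal cells with neither gene and no Gdf10.

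The remaining markers of this cell type were present at high levels, as the label calls for. Cd55, a regulator of complement on the cell surface, averaged 658 ± 99.3 CPM over the 8 libraries (SD), Sema3c, a secreted guidance cue, 529 ± 59.3 CPM, Anxa3, a calcium-dependent membrane binder, 977 ± 63.6 CPM, and Mfap5, a component of microfibrils, 1552 ± 137 CPM. After thinning each cell to 3000 UMIs, Cd55 was kept in 73.4% ± 3.50 of the cells, Sema3c in 73.4% ± 4.01, Anxa3 in 88.3% ± 2.57 and Mfap5 in 93.7% ± 1.09 (SD over 8 libraries). The thinning used 2336 cells and left out 324 shallower ones, and the unthinned shares were 91.7%, 94.1%, 97.3% and 98.6%. Sema3c and Mfap5 were kept in 0.170% and 1.19% of B cell droplets thinned to the same depth, which serve as the level of free RNA. Cd55 was kept in 60.3% of B cell droplets, so its share sets these cells apart from other stromal cells (11.9% and 13.1%) and not from B cells. Anxa3 was kept in 2.21% of B cell droplets. Mfap5 was kept in 73.5% and 76.0% of the other stromal cells (the Col15a1+ and Gdf10+ cells described below), so it is largely shared with them. Sema3c was kept in 2.19% and 8.09% of those cells and Anxa3 in 5.61% and 12.7%. Before thinning the median depth was 8963 UMIs in Dpp4+ Pi16+ cells and 3552 UMIs in B cell droplets, so their CPM compares unlike depths. The B cell droplets numbered 2796, with only 31, 81 and 24 in Ad-Lib replicates 1, 5 and 7. Their median depth was 9365 UMIs in Ad-Lib replicate 1 and 3198 to 3880 UMIs elsewhere. Ranges over libraries given for them rest partly on few droplets.

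The cells were next set beside the other stromal progenitors to describe what they share beyond the genes of the rule. The Col15a1+ cells (1090, with at least 3 UMIs of Col15a1 and Icam1, no Gdf10, Pi16 or Dpp4) stand for committed preadipocytes, and the Gdf10+ cells (2619, with at least 1 Gdf10 UMI, at least 3 UMIs of Gdf10 and F3 and at most 2 of Pi16 and Dpp4) for the third population. These values are descriptions without a test, because the cells were sorted by expression. Krtdap, Dmkn and Sbsn, which are neighbours on chromosome 7 and are best known from differentiating epidermis, had the largest median ratios within libraries. Krtdap averaged 277 ± 55.8 CPM in Dpp4+ Pi16+ cells, 0.175 CPM in Col15a1+ cells and 0.345 CPM in Gdf10+ cells. Dmkn averaged 300.3 ± 84.3 CPM against 0.470 and 0.279 CPM, and Sbsn 622 ± 122 CPM against 5.17 and 4.89 CPM. These genes were not seen in every cell, since thinning kept Krtdap in 30.8% ± 5.93, Dmkn in 30.5% ± 6.68 and Sbsn in 50.6% ± 7.96 of the cells.

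Il33, Wnt10b, Bmp7 and Wnt2 were also high in these cells in the same description. Il33, an alarmin of the interleukin-1 family that activates innate lymphoid cells, averaged 151 ± 32.9 CPM, with 3.27 CPM in Col15a1+ cells and 11.2 CPM in Gdf10+ cells. Thinning kept Il33 in 31.2% ± 5.06 of the Dpp4+ Pi16+ cells, 0.881% of the Col15a1+ cells, 2.82% of the Gdf10+ cells and 0.0261% of the B cell droplets. Wnt10b, which blocks adipogenesis, averaged 77.3 ± 13.5 CPM against 0.488 CPM in Gdf10+ cells and was listed at 0 in every library of Col15a1+ cells. Bmp7 averaged 68.1 ± 11.8 CPM against 0.221 and 0.113 CPM, and Wnt2 83.0 ± 14.2 CPM against 1.37 and 3.77 CPM, in Col15a1+ and Gdf10+ cells. Also high against Col15a1+ cells were Ptgs2, the inducible enzyme of prostaglandin synthesis, at 790 ± 140 CPM against 7.69 CPM, and Smpd3, a sphingomyelinase, at 1056 ± 331 CPM against 8.09 CPM. Col4a2, Sparcl1 and Cxcl14 were low in the Dpp4+ Pi16+ cells. Col4a2, a chain of basement membrane collagen, averaged 33.0 ± 12.1 CPM against 1285 CPM in Col15a1+ cells, Sparcl1 25.6 ± 15.9 CPM against 1709 CPM, and the chemokine Cxcl14 33.5 ± 41.6 CPM against 1866 CPM. Each of these genes differed in the same direction in all 8 libraries.

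**Figure D1:**
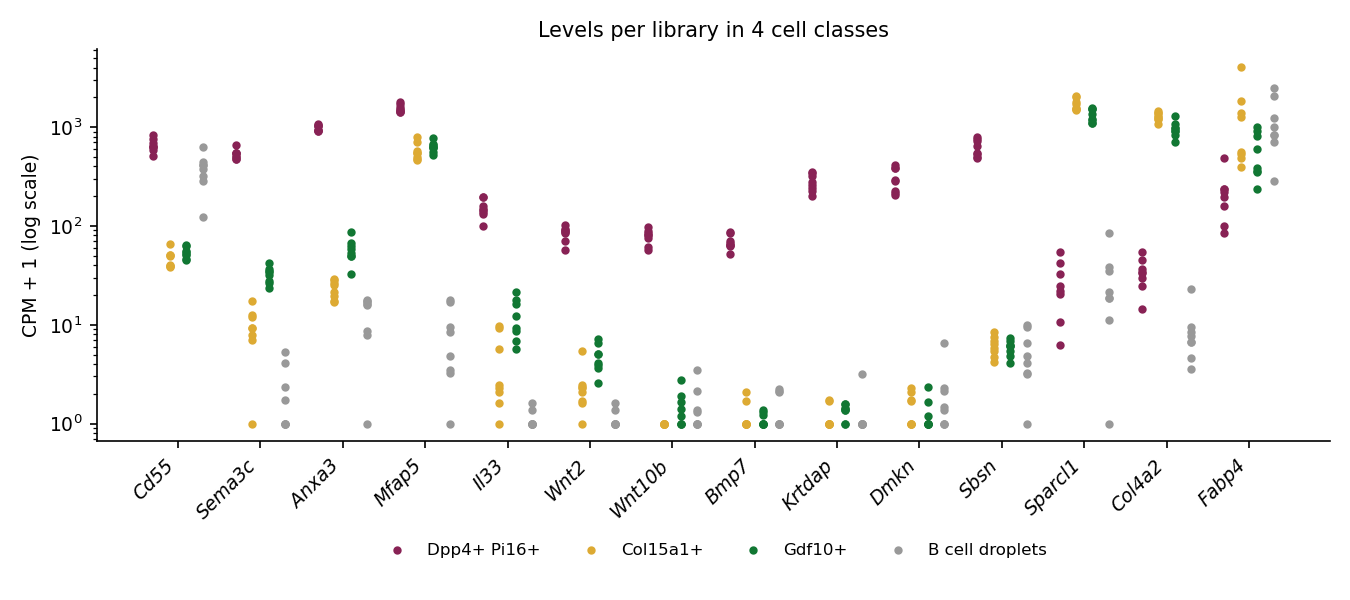
Level of each gene (CPM + 1, log axis) in 4 cell classes, with 1 point per library (8 per class). Cd55, Sema3c, Anxa3, Mfap5, Il33, Wnt2, Wnt10b, Bmp7, Krtdap, Dmkn and Sbsn lie highest on average in the Dpp4+ Pi16+ cells, Sparcl1 and Col4a2 lie far lower there than in Col15a1+ and Gdf10+ cells, and Fabp4 lies lower on average than in B cell droplets.

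The size of the population was compared next. Of all cells kept, Dpp4+ Pi16+ cells made up 12.9%, 7.87%, 5.77% and 7.56% in Ad-Lib replicates 1, 3, 5 and 7 and 8.27%, 6.82%, 2.92% and 6.48% in TAN replicates 2, 4, 6 and 8. The means were 8.52% ± 3.06 and 6.12% ± 2.27 (SD, n = 4 each), and the groups overlapped (exact permutation p = 0.314, two-sided, where 0.0286 is the smallest p this design can give). This share moves with the number of lymphocytes in a library, so the share of stromal cells was taken as well. It was 32.9%, 31.0%, 18.4% and 19.7% in Ad-Lib and 32.5%, 36.2%, 24.4% and 26.5% in TAN libraries in the same order. The means were 25.5% ± 7.50 and 29.9% ± 5.41 (SD, n = 4 each, exact permutation p = 0.4). Exact Clopper-Pearson 95% intervals of single libraries, which cover counting error only, reached from 16.3% to 20.7% for the lowest share and from 33.1% to 39.4% for the highest. Replicates 1 to 4 stood above replicates 5 to 8 whatever the feeding, a split seen in the data that the labels do not name as a batch. Among replicates 1 to 4 the stromal share was 31.9% in Ad-Lib and 34.3% in TAN, and among replicates 5 to 8 it was 19.0% and 25.5%. The share of all cells kept was 10.4% and 7.54% in the first set and 6.66% and 4.70% in the second. With assignments kept within these sets the exact permutation p was 0.111 for the stromal share and 0.222 for the share of cells kept, over 36 assignments. The sets were chosen after seeing these data, so these p-values are a description. Cells with a UMI of Mki67 or Top2a, which mark division, numbered 12 of 2660 (0.451%), too few to compare groups.

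**Figure D2:**
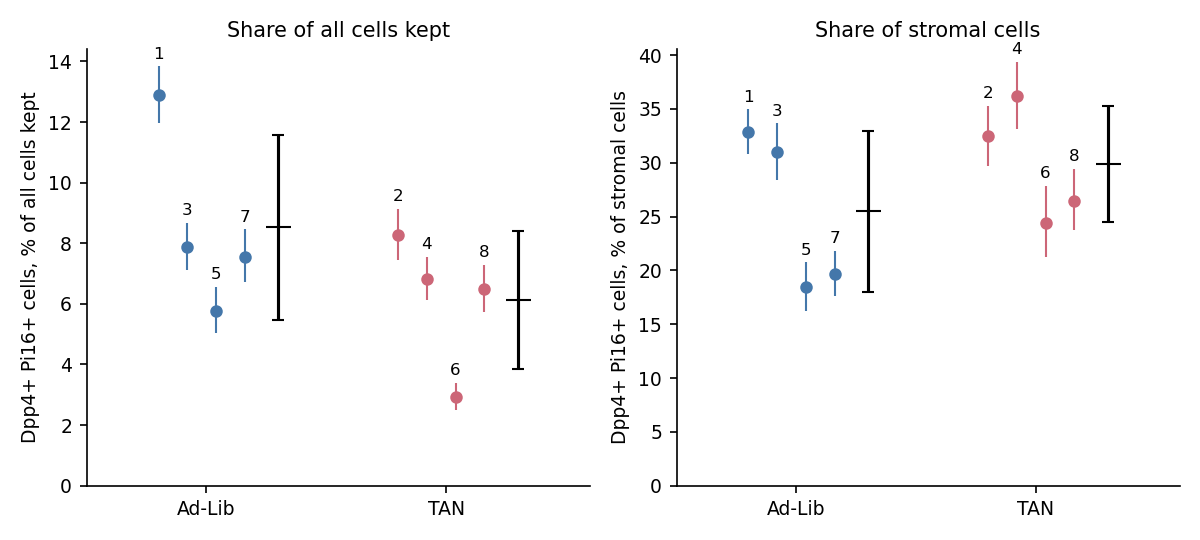
Dpp4+ Pi16+ cells in percent of all cells kept (left) and of stromal cells (right), 1 point per library labelled by replicate number, with exact 95% counting intervals, and the mean ± SD of each group of 4 in black. The groups overlap in both panels, and replicates 5 to 8 lie under replicates 1 to 4 in the share of stromal cells.

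To ask how these cells differed between the feeding groups, counts were summed per library and tested with edgeR's quasi-likelihood test over 9900 genes. Calls required a change of 1.5-fold or more with an adjusted p (Benjamini-Hochberg) below 0.05, and adjusted p-values are edgeR's unless DESeq2 is named. Called genes numbered 46 (0.465% of those tested), of which 11 were higher in TAN (0.111%) and 35 lower (0.354%), and 1028 genes had an unadjusted p under 0.05. Fbn1, Adamts5, Tgfb2, Bmp4 and Thy1 were among the lower genes and Cxcl13, Cxcl12, Igfbp3 and Cdkn1c among the higher ones. The groups did not overlap for 38 of the 46 and for 4.95% of all genes tested. The calls rest on the same values, so this is a description and adds no separate support. Genes were named below in part for this lack of overlap. Without TAN replicate 4 only 9 genes were called, without TAN replicate 2 20, without Ad-Lib replicate 3 29 and without TAN replicate 6 75, so the count rests on single libraries. DESeq2 called 44 genes, of which 35 were shared, and a fit with replicates 1 to 4 and 5 to 8 as a term called 61, all 46 among them.

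Fbn1 encodes fibrillin-1, the backbone of extracellular microfibrils (chr2:125300594-125507993, minus strand, GRCm38). It lay at 659, 709, 612 and 696 CPM in Ad-Lib libraries and at 372, 414, 397 and 439 CPM in TAN libraries, so the groups did not overlap. The log2 change of Fbn1 was -0.73 (SE 0.09, adjusted p = 0.00132), and it was called whichever library was left out. Adamts5, an aggrecan-cleaving protease (chr16:85856173-85901828, minus strand), lay at 875 to 1084 CPM in Ad-Lib libraries and at 552 to 803 CPM in TAN. Its log2 change was -0.60 (SE 0.10, adjusted p = 0.00878), and the call was kept in 4 of 8 fits that left out a library, and was lost without TAN replicate 2, 4 or 8 or Ad-Lib replicate 7. Prss23, a secreted serine protease, lay at 610, 499, 478 and 488 CPM in Ad-Lib libraries and at 329, 337, 299.8 and 342 CPM in TAN. Its log2 change was -0.68 (SE 0.10, adjusted p = 0.00878), and the call was lost without Ad-Lib replicate 1, which stood above the other Ad-Lib libraries.

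Thy1 (CD90), a surface glycoprotein of many mesenchymal cells (chr9:44043384-44048579, plus strand), lay at 78.5 to 90.3 CPM in Ad-Lib libraries and at 38.4 to 60.3 CPM in TAN. The log2 change was -0.88 (SE 0.12, adjusted p = 0.00298), and Thy1 was called in all 8 fits that left out a library. Edn1, the precursor of the vasoconstrictor endothelin-1, lay at 95.8 to 114 CPM in Ad-Lib libraries and at 62.4 to 73.8 CPM under TAN (log2 change -0.64, SE 0.09, adjusted p = 0.00599, lost without TAN replicate 8). Cdh13, a cadherin without a cytoplasmic part that binds adiponectin, lay at 68.8 to 76.9 CPM and 45.6 to 57.1 CPM (log2 change -0.62, SE 0.10, adjusted p = 0.00878, lost without Ad-Lib replicate 1 or TAN replicate 4). Lmo1, a LIM-domain regulator of transcription, lay at 29.3 to 51.3 CPM and 14.2 to 23.7 CPM, with a log2 change of -1.15 (SE 0.18, adjusted p = 0.00878, lost without TAN replicate 4). Among genes at lower levels, Anxa8 lay at 24.4 to 30.8 CPM under Ad-Lib feeding and 3.93 to 16.7 CPM with TAN, and Slc6a12, a carrier of betaine and GABA, at 13.9 to 16.5 CPM and 1.97 to 11.4 CPM. Qrfpr, a neuropeptide receptor, lay at 5.80 to 10.1 CPM in Ad-Lib libraries and at 0 to 0.938 CPM in TAN (adjusted p = 0.00336, with no adjusted p given by DESeq2). Prrt4 lay at 4.89 to 11.3 CPM and 0.989 to 3.52 CPM. The calls of Anxa8, Slc6a12 and Prrt4 were lost without TAN replicate 2 or 4.

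Tgfb2 and Bmp4, growth factors of the TGF-beta family, were lower. Tgfb2 (chr1:186622792-186705989, minus strand) lay at 109, 118, 159 and 165 CPM in Ad-Lib libraries and at 66.0, 69.6, 83.5 and 102 CPM in TAN. The groups did not overlap, and the log2 change was -0.78 (SE 0.13, adjusted p = 0.00986). Bmp4, which can commit mesenchymal cells to the fat lineage, lay at 50.9, 39.1, 74.4 and 44.6 CPM in Ad-Lib libraries and at 27.8, 25.6, 23.7 and 34.1 CPM in TAN, with a log2 change of -0.87 (SE 0.17, adjusted p = 0.0269). Both calls were lost without TAN replicate 2 and without TAN replicate 4 (adjusted p up to 0.0704 for Tgfb2 and 0.147 for Bmp4), and that of Bmp4 also without Ad-Lib replicate 1.

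The chemokines Cxcl13 and Cxcl12 were higher. Cxcl13, which draws B cells through Cxcr5 (chr5:95956951-95961068, plus strand), lay at 283, 259, 324 and 281 CPM in Ad-Lib libraries and at 703, 640, 406 and 666 CPM in TAN. The log2 change was 1.08 (SE 0.14, adjusted p = 0.0022), and Cxcl13 was called whichever library was left out. TAN replicate 6 was the lowest of its group. Cxcl12, the ligand of Cxcr4 (chr6:117168535-117181367, plus strand), averaged 48.2 ± 3.91 CPM under Ad-Lib feeding and 83.2 ± 17.2 CPM with TAN without overlap (SD, n = 4 each; edgeR log2 change 0.80, SE 0.12, adjusted p = 0.00878, lost at 0.0592 without TAN replicate 4). Thinning kept Cxcl13 in 31.8% ± 9.98 of the cells, so most of them had none at this depth, against 0.809% of the B cell droplets.

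Igfbp3 and Cdkn1c were higher too. Igfbp3, a binding protein of insulin-like growth factors (chr11:7206086-7213923, minus strand), lay at 58.1 to 85.7 CPM under Ad-Lib feeding and 95.9 to 176 CPM with TAN (log2 change 0.89, SE 0.15, adjusted p = 0.0117). Cdkn1c, the cyclin-dependent kinase inhibitor p57 (chr7:143458339-143461050, minus strand), lay at 171, 190, 169 and 221 CPM in Ad-Lib libraries and at 370, 336, 368 and 232 CPM in TAN. The log2 change was 0.80 (SE 0.14, adjusted p = 0.0135), and the call was lost without TAN replicate 2 or 4. TAN replicate 8 lay just above the highest Ad-Lib library. Hic1, a transcriptional repressor, Pth1r, the receptor of parathyroid hormone, Rapgef3, a cyclic AMP-activated exchange factor, and Zfpm1, a partner of GATA factors, were higher by 0.60 to 1.08 on the log2 scale, with adjusted p between 0.0269 and 0.0444. Each of these calls was kept in at most 4 of 8 fits that left out a library, and each was lost without TAN replicate 2, TAN replicate 4 or Ad-Lib replicate 7. Those of Pth1r, Rapgef3 and Zfpm1 were also lost without Ad-Lib replicate 3, those of Hic1, Pth1r and Zfpm1 without TAN replicate 8, that of Hic1 without Ad-Lib replicate 1 or TAN replicate 6, and that of Pth1r without Ad-Lib replicate 5. Among cells with 5000 to 20000 UMIs Hic1 (adjusted p = 0.0588) and Zfpm1 (0.0637) were not called. With at least 5 Pi16 and Dpp4 UMIs Hic1 (0.0532) and Pth1r (0.0509) were not called, and Hic1 was also lost with at least 2 such UMIs (0.0558) and with doublets removed (0.0558).

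Mid1, a ubiquitin ligase of microtubules (chrX:169685199-170005736, plus strand), had the smallest p. It lay at 7.19 to 11.8 CPM under Ad-Lib feeding and 26.3 to 44.5 CPM with TAN (log2 change 1.79, SE 0.18, adjusted p = 0.000333). The gene reaches across the boundary of the pseudoautosomal region, where reads can be assigned to more than 1 copy, so its count is uncertain. Mid1 was also higher in Col15a1+ cells (log2 change 1.29), in Gdf10+ cells (1.35) and in the B cell droplets (7.84 against 26.4 CPM, means of 4 libraries). The differences from the change in Col15a1+ cells (0.52, adjusted p = 0.354) and Gdf10+ cells (0.49, adjusted p = 0.371) did not pass. Efcc1, of which little is known, lay at 8.24 to 11.3 CPM under Ad-Lib feeding and 19.7 to 21.1 CPM with TAN (log2 change 1.05, SE 0.15, adjusted p = 0.0061).

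**Figure D3:**
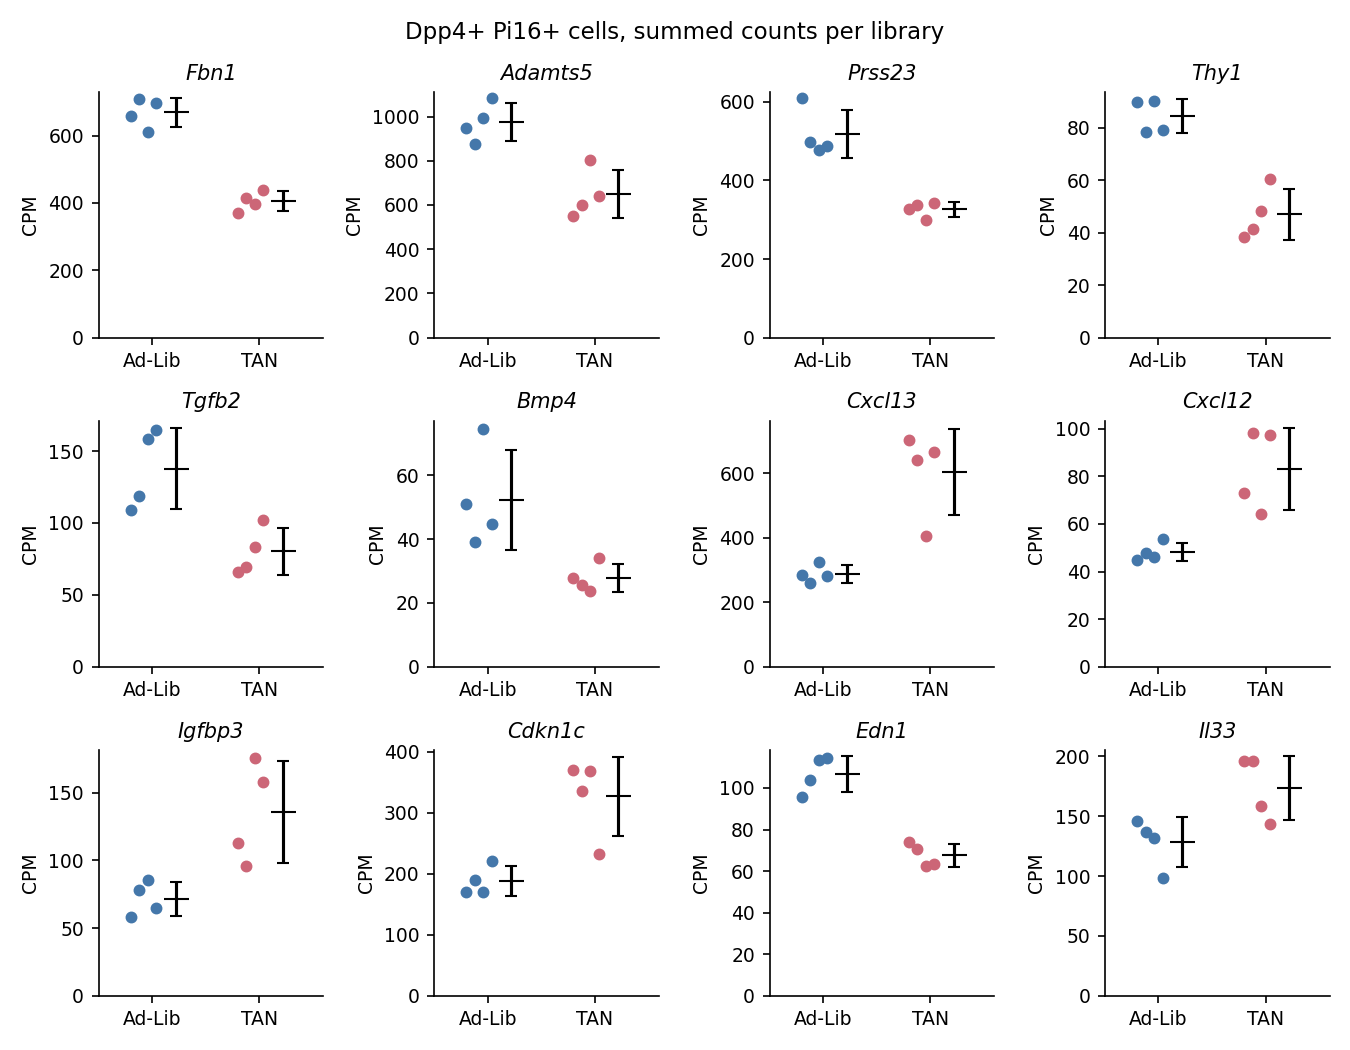
Levels (CPM, axes from 0) of 12 genes in Dpp4+ Pi16+ cells, 1 point per library, with the mean ± SD of each group of 4 in black. Fbn1, Adamts5, Prss23, Thy1, Tgfb2, Bmp4 and Edn1 lie lower in all TAN libraries and Cxcl13, Cxcl12, Igfbp3 and Cdkn1c lie higher in all of them, while Il33 overlaps.

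Anxa3, Cd55, Sema3c and Mfap5, the markers of the cell type outside the rule, did not pass the test. Anxa3 averaged 975 ± 63.0 CPM under Ad-Lib feeding and 978 ± 73.9 CPM with TAN (SD, n = 4 each), Cd55 686 ± 106 and 631 ± 98.2 CPM, Sema3c 514 ± 32.7 and 544 ± 80.6 CPM, and Mfap5 1656 ± 118 and 1448 ± 36.3 CPM (adjusted p = 0.412). Dmkn passed, close to the limit of the test. It lay at 287 to 414 CPM under Ad-Lib feeding and 207 to 280 CPM with TAN (log2 change -0.67, SE 0.13, adjusted p = 0.0378, kept only without TAN replicate 2 or Ad-Lib replicate 7). Its neighbours Krtdap (-0.40, adjusted p = 0.273) and Sbsn (-0.39, adjusted p = 0.229) did not pass. Il33 lay at 146, 137, 132 and 98.0 CPM in Ad-Lib libraries and at 196, 196, 158 and 144 CPM in TAN. The lowest TAN library lay under the highest Ad-Lib library, and the log2 change of 0.43 (SE 0.14, adjusted p = 0.258) did not pass. Within replicates 1 to 4 and within replicates 5 to 8 both TAN libraries lay above both Ad-Lib libraries. The adjusted p was 0.0383 with these sets as a term, an alternative chosen after seeing the data, and 0.0102 without the filter on low counts, while the change stayed under the 1.5-fold limit in both.

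Lists of related genes were counted next. Of all genes tested 0.111% were called higher and 0.354% lower, and the median log2 change was 0.00. In the list of 20 microfibril and elastic fibre genes, 1 (Fbn1) was lower, 0 were higher and the median log2 change was -0.02. Lox, the enzyme that crosslinks elastin and collagen, had a log2 change of -0.96 with an adjusted p of 0.356. Of 19 collagen genes and their partners none was called (median -0.03). Col6a3 (0.35) and Col5a2 (-0.61) both had an adjusted p of 0.0987. Of 15 genes of matrix proteases and their inhibitors 1 (Adamts5) was lower, and of 27 TGF-beta and BMP genes 2 (Tgfb2 and Bmp4) were lower, with list medians of -0.01 and 0.01. Of 20 genes known for this progenitor state only Fbn1 was called, and the median was -0.03. That list, like all the lists here, was drawn up with earlier results of these data in view, so the counts are descriptions. Of 17 Wnt pathway genes none was called (median -0.03), and Sfrp2, a secreted Wnt modulator, had a log2 change of -0.55 (adjusted p = 0.0604).

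Cytokine and chemokine genes held 2 higher genes of 19 (Cxcl13 and Cxcl12), with a median of 0.10. Over all genes tested 0.111% were called higher. Insulin, IGF and leptin signalling genes held 1 higher of 18 (Igfbp3, median 0.04), and cell cycle genes 1 higher of 8 (Cdkn1c, median 0.23). None was called among 19 adipogenic regulators (median -0.06), 19 fatty acid genes (0.15), 14 committed preadipocyte genes (0.29), 6 genes of the Gdf10+ state (-0.44), 18 immediate early genes (-0.04), 15 clock genes (-0.08), 15 glucocorticoid-responsive genes (-0.25) and 15 heat shock and unfolded protein genes (0.01). All 12 mitochondrially encoded genes had positive values (median 0.19) and none was called. Fabp4, the fatty acid carrier of adipocytes, lay at 84.3 to 233 CPM under Ad-Lib feeding and 196 to 484 CPM with TAN (log2 change 0.99, SE 0.27, adjusted p = 0.145). The highest value came from TAN replicate 8, without which the log2 change was 0.63 (adjusted p = 0.357). Thinning kept Fabp4 in 18.9% of the Dpp4+ Pi16+ cells and 29.0% of the B cell droplets, so this share did not exceed that in a cell type that should lack the gene. Before thinning the shares were 36.2% and 34.9%. With doublets removed Fabp4 passed (log2 change 0.88, adjusted p = 0.0139).

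Whether the change under TAN differed between progenitor classes was tested as the interaction of class and feeding, with the library as a block. Against Col15a1+ cells 55 of 10590 genes differed (0.519%), of which 39 had the more positive change in Dpp4+ Pi16+ cells (0.368%) and 16 the more negative one (0.151%). Against Gdf10+ cells 44 of 11367 genes differed (0.387%), 39 more positive (0.343%) and 5 more negative (0.044%) in Dpp4+ Pi16+ cells. Both tests use the same Dpp4+ Pi16+ sums, so they are not independent, and 20 genes were called in both (36.4% of the first list and 45.5% of the second). Of the 55 and 44 genes, 4 and 3 were called in the feeding comparison of Dpp4+ Pi16+ cells itself, where 0.465% of all genes tested were called. TAN replicate 6 held only 30 Col15a1+ cells. Without Ad-Lib replicate 3 and TAN replicate 4 the first count was 32 and 21, the second was 25 without TAN replicate 2 and 75 without TAN replicate 8, and DESeq2 called 24 and 25. DESeq2 gave no adjusted p for 32 of the 55 and 18 of the 44 genes, Postn, Cdh13, Col6a6, Ifit3 and Lgmn among them, so its counts leave these genes untested.

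Mt1, Mt2 and Btg2 had more positive changes in Dpp4+ Pi16+ cells than in either other class, and Atf3 than in Col15a1+ cells. Mt2 (metallothionein 2, a binder of zinc and copper) lay at 444, 639, 314 and 655 CPM in Ad-Lib libraries and at 353, 425, 607 and 310 CPM in TAN in Dpp4+ Pi16+ cells, with overlapping groups (log2 change -0.30, SE 0.21, adjusted p = 0.708). In Col15a1+ cells it lay at 175 to 297 CPM and 83.0 to 93.3 CPM (log2 change -1.44, adjusted p = 9.9e-06), and in Gdf10+ cells at 347 to 646 CPM and 127 to 271 CPM (-1.19, adjusted p = 0.00877), with no overlap in either class. The difference between the changes was 1.11 (SE 0.15, adjusted p = 0.00125) against Col15a1+ cells and 0.93 (SE 0.15, adjusted p = 0.00647) against Gdf10+ cells. Its neighbour Mt1 differed by 0.85 (SE 0.16, adjusted p = 0.00945) and by 0.67 (SE 0.13, adjusted p = 0.0182), with calls kept in 7 and 5 of 8 fits that left out a library. Atf3, a stress-induced transcription factor, averaged 793 ± 256 and 803 ± 113 CPM in Dpp4+ Pi16+ cells and 549 ± 165 and 323 ± 51.9 CPM in Col15a1+ cells (SD, n = 4 each), a difference of 0.83 (SE 0.11, adjusted p = 0.00125). In Gdf10+ cells Atf3 averaged 739 ± 221 and 524 ± 70.8 CPM, and the difference of 0.58 (SE 0.11, adjusted p = 0.0198) lay just under the 1.5-fold limit and was not called. Btg2, an antiproliferative gene induced by p53, averaged 689 ± 191 and 639 ± 101 CPM in Dpp4+ Pi16+ cells, 993 ± 126 and 526 ± 64.3 CPM in Col15a1+ cells and 1049 ± 201 and 634 ± 163 CPM in Gdf10+ cells. Its change differed by 0.88 (SE 0.12, adjusted p = 0.00125) and 0.72 (SE 0.11, adjusted p = 0.00392).

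The starts of these 4 genes are shown because the genes are well-known targets of metal and cyclic AMP signals. Each window runs from 250 bases before to 50 bases after the start of the RefSeq gene, read 5′ to 3′ on the gene's own strand (GRCm38.p6). They lie at chr8:94178839-94179138 (plus strand) for Mt1, chr8:94172368-94172667 (plus strand) for Mt2, chr1:191183284-191183583 (minus strand) for Atf3 and chr1:134079106-134079405 (minus strand) for Btg2. In all 4 windows capitals mark every match, on either strand, of the core of the metal response element, TGCACNC or TGCGCNC, and of TGACGT, which is part of the cyclic AMP response element. The palindrome TGACGTCA holds TGACGT on both strands at once.
Mt1: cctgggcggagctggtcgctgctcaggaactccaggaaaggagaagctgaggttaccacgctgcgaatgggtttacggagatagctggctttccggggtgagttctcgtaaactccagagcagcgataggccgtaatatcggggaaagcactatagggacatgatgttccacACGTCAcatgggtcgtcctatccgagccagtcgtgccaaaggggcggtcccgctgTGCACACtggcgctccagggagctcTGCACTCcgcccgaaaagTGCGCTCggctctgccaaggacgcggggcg
Mt2: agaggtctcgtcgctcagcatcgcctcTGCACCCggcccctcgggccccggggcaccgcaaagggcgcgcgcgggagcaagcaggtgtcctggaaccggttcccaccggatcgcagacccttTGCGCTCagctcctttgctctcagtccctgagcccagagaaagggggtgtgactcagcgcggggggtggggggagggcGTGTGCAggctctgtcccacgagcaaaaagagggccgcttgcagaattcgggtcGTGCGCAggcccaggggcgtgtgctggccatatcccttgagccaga
Atf3: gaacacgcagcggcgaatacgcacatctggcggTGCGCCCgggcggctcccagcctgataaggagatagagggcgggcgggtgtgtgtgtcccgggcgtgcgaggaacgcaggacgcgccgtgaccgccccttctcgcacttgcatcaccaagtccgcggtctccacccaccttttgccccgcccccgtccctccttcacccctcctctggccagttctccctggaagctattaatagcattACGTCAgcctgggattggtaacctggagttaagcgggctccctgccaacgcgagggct
Btg2: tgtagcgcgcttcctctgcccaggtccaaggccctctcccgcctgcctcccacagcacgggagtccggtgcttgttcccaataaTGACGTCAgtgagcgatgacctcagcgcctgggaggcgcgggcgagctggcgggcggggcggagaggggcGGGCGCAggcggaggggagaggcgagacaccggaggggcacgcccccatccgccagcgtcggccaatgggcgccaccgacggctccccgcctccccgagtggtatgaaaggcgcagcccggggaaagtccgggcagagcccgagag
Mt1 held 3 matches of the metal response core, Mt2 held 4, and Atf3 and Btg2 held 1 each. Of 32851 windows of this length, 25.7% held at least 1 match, 1.97% at least 3 and 0.517% at least 4. Mt1 and Atf3 held 1 match of TGACGT each, Mt2 held 0, and Btg2 held the whole palindrome, which 1.79% of the windows hold, while 7.51% hold TGACGT. A match is a description of letters and was not tied to the levels above by any test.

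Nfkbiz, an inducible regulator of NF-kappaB targets such as Il6, followed the same pattern of levels. It lay at 168 to 259 CPM in Ad-Lib libraries and 187 to 224 CPM under TAN in Dpp4+ Pi16+ cells, at 196 to 233 and 70.8 to 132 CPM in Col15a1+ cells, and at 220 to 292 and 111 to 156 CPM in Gdf10+ cells. The change differed by 1.18 (SE 0.16, adjusted p = 0.00125) and 0.87 (SE 0.13, adjusted p = 0.00392), and the calls were kept in all 8 fits that left out a library. Of 19 immediate early genes, 6 had a more positive change than in Col15a1+ cells (Atf3, Ier2, Btg2, Klf2, Klf4 and Maff) and 3 than in Gdf10+ cells (Btg2, Nr4a1 and Klf2), with none more negative. The list's median difference was 0.55 and 0.35, against 0.02 and 0.02 over all genes tested. Over all genes tested 0.368% and 0.343% were called more positive. Of 15 glucocorticoid-responsive genes, 2 (Mt1 and Mt2) and 3 (these and Tsc22d3) were more positive, and of 20 cytokine and chemokine genes 2 and 1 were, of which Il6 (1.96, adjusted p = 0.0225, and 1.05, adjusted p = 0.00902) was in both.

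Cdkn1c, which passed in the feeding comparison, also differed from both other classes. It averaged 72.7 ± 6.51 and 52.1 ± 15.6 CPM in Col15a1+ cells and 81.9 ± 9.39 and 71.5 ± 21.9 CPM in Gdf10+ cells, where neither change passed. Its change in Dpp4+ Pi16+ cells exceeded theirs by 1.18 (SE 0.17, adjusted p = 0.00125) and 1.06 (SE 0.16, adjusted p = 0.00392). Col6a6, a chain of type VI collagen, averaged 24.4 ± 2.93 and 27.0 ± 2.56 CPM in Dpp4+ Pi16+ cells and 43.7 ± 10.5 and 19.1 ± 7.49 CPM in Gdf10+ cells (difference 1.42, SE 0.21, adjusted p = 0.00392).

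Sfrp2, Igfbp5, Cdh13, Postn and Cd36 had more negative changes than in Col15a1+ cells. Sfrp2 lay lower in TAN in Dpp4+ Pi16+ cells without passing (535 ± 105 and 365 ± 72.9 CPM) and higher in Col15a1+ cells (22.3 ± 4.06 and 50.2 ± 17.1 CPM, log2 change 1.13, adjusted p = 0.00632), a difference of -1.63 (SE 0.26, adjusted p = 0.00297). Igfbp5 averaged 3652 ± 425 and 3757 ± 509 CPM in Dpp4+ Pi16+ cells and 634 ± 108 and 1504 ± 410 CPM in Col15a1+ cells (difference -1.14, SE 0.18, adjusted p = 0.00271). Cdh13 was lower in Dpp4+ Pi16+ cells and averaged 22.5 ± 2.49 and 35.8 ± 9.56 CPM in Col15a1+ cells (log2 change 0.74, adjusted p = 0.0425, difference -1.36, SE 0.21, adjusted p = 0.00252). Postn, a matricellular protein, differed by -1.25 (SE 0.21, adjusted p = 0.00336). Ad-Lib replicate 7 alone lay at 202 CPM in Dpp4+ Pi16+ cells against 45.8 to 67.2 CPM in the other Ad-Lib libraries. Without Ad-Lib replicate 7 the difference was -1.20 (adjusted p = 0.0106). Cd36, a fatty acid transporter, averaged 9.36 ± 2.46 and 13.7 ± 6.81 CPM in Dpp4+ Pi16+ cells and 21.7 ± 6.10 and 121 ± 36.6 CPM in Col15a1+ cells, a difference of -1.89 (SE 0.35, adjusted p = 0.00945, kept in 6 of 8 fits that left out a library).

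Prss23 and Apoe were more negative in both comparisons. Against Gdf10+ cells Prss23 differed by -0.86 (SE 0.13, adjusted p = 0.00392), and in Gdf10+ cells it averaged 300.3 ± 45.5 and 356 ± 44.9 CPM. Apoe, the lipid carrier, averaged 90.7 ± 26.5 and 62.5 ± 4.84 CPM in Dpp4+ Pi16+ cells and 764 ± 105 and 1081 ± 271 CPM in Gdf10+ cells (difference -0.95, SE 0.16, adjusted p = 0.00647). The interferon-induced Ifit3 (-1.14, SE 0.23, adjusted p = 0.0201) and the lysosomal protease Lgmn (-0.73, SE 0.16, adjusted p = 0.0376) kept their calls in 4 and 3 of 8 fits that left out a library. Both were lost without Ad-Lib replicate 1 or 3 or TAN replicate 2 or 6, and Lgmn also without Ad-Lib replicate 5. Other called genes of the feeding comparison did not all differ between classes. The change of Fbn1 differed from that in Col15a1+ cells by -0.64 (SE 0.14, adjusted p = 0.0405, called in 1 of 8 fits that left out a library) and from that in Gdf10+ cells by -0.33 (SE 0.10, adjusted p = 0.23). Cxcl12 was also higher in Gdf10+ cells (log2 change 0.83, adjusted p = 0.00571), and its change differed from theirs by -0.04. The Il33 change did not pass the test of difference against Col15a1+ cells (2.58, SE 0.69, adjusted p = 0.112, at 0 to 8.79 CPM there) or Gdf10+ cells (-0.75, SE 0.19, adjusted p = 0.0955, at 4.67 to 20.2 CPM there).

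**Figure D4:**
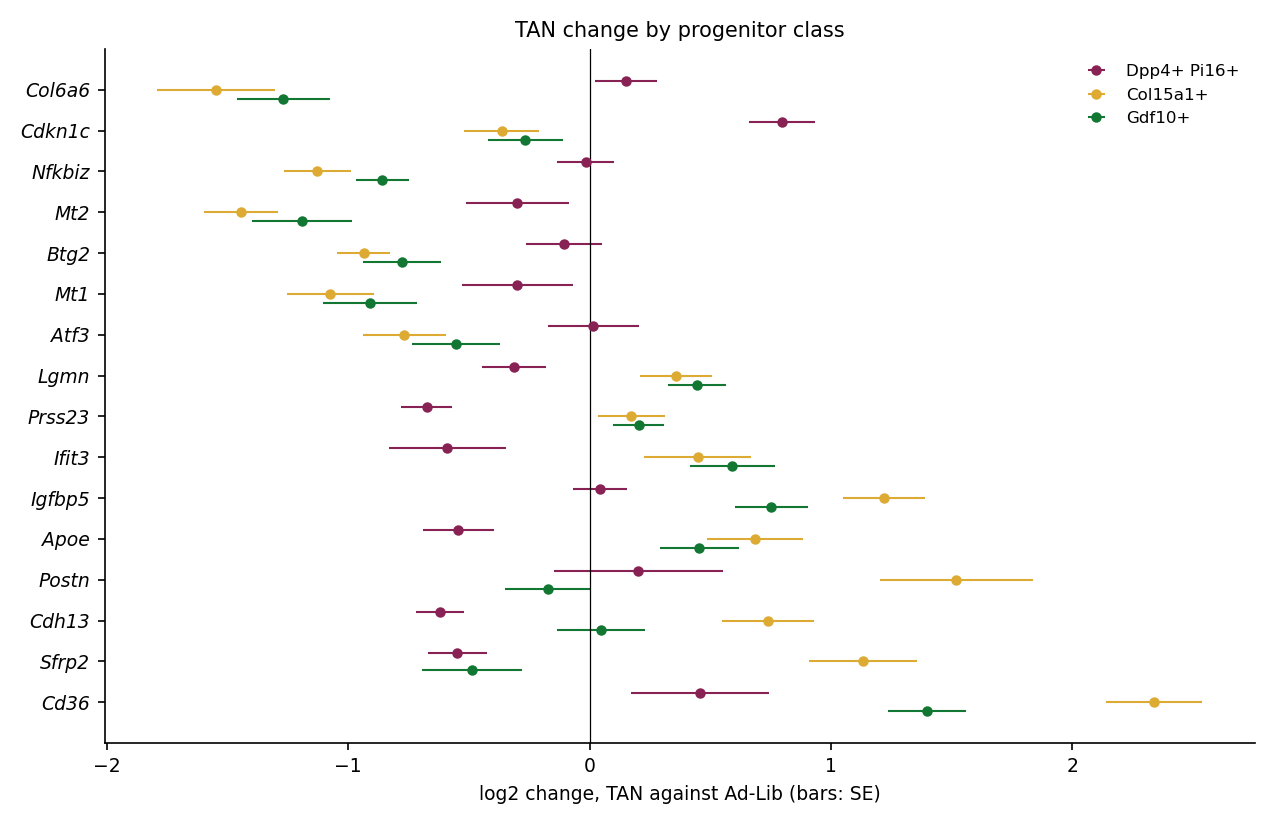
Log2 change under TAN against Ad-Lib (points, with SE bars) of 16 genes in Dpp4+ Pi16+, Col15a1+ and Gdf10+ cells, from a separate fit of each class. Mt2, Mt1, Btg2, Nfkbiz and Atf3 lie near or below 0 in Dpp4+ Pi16+ cells and further below 0 in the other classes, and Cdkn1c lies above 0 only in Dpp4+ Pi16+ cells.

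**Figure D5:**
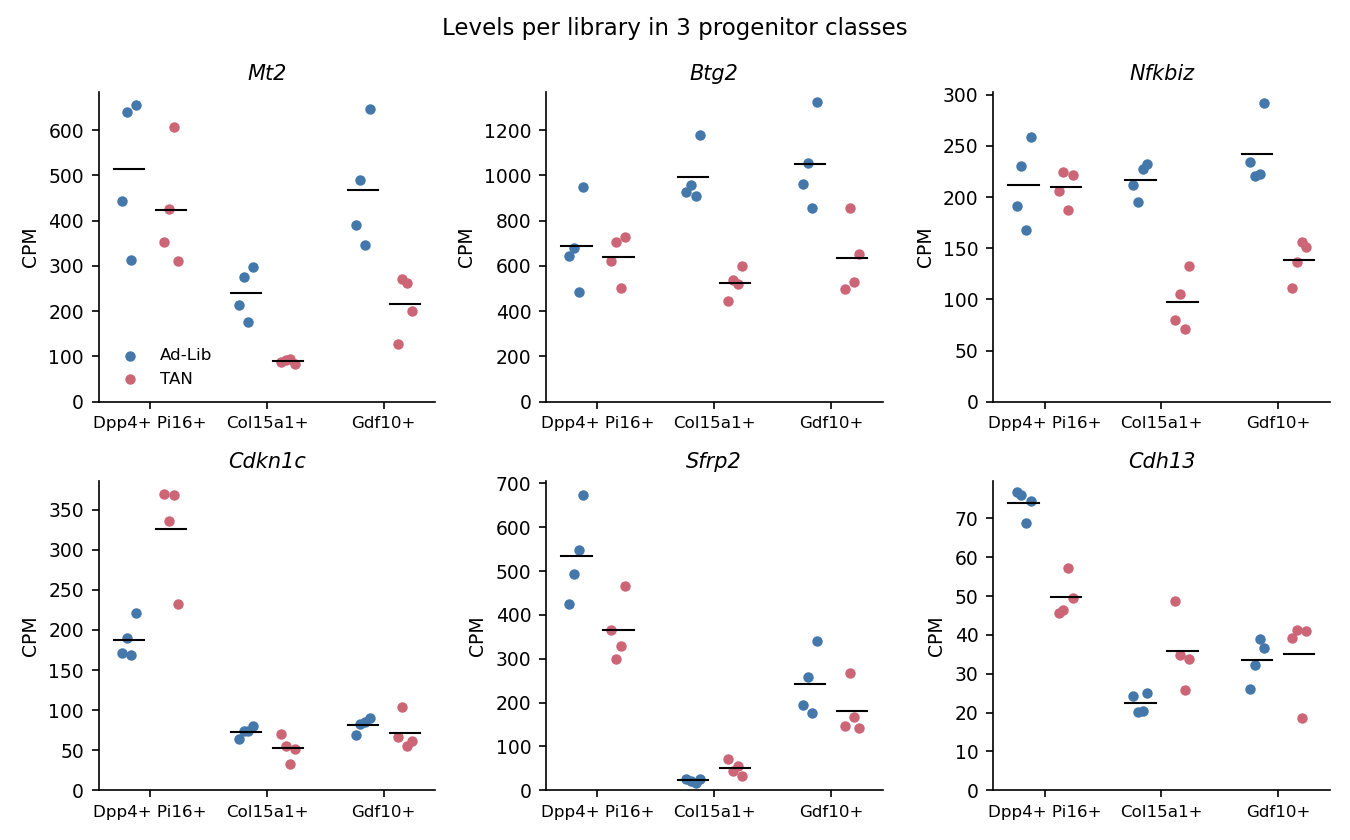
Levels (CPM, axes from 0) of 6 genes in 3 progenitor classes, 1 point per library, 4 Ad-Lib and 4 TAN, with black lines at group means. For Mt2, Btg2 and Nfkbiz the groups overlap in Dpp4+ Pi16+ cells and do not in Col15a1+ cells, while for Cdkn1c they overlap in Col15a1+ and Gdf10+ cells and not in Dpp4+ Pi16+ cells.

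Markers of other cell types were summed in Dpp4+ Pi16+ cells and set beside the B cell droplets. Of 11 adipocyte genes all 11 had a UMI, 3 averaged under 1 CPM, and their sum lay at 59.4 to 127 CPM under Ad-Lib feeding and 52.7 to 128 CPM with TAN, against 76.5 to 627 CPM in B cell droplets. Thrsp, a lipogenic adipocyte gene, was called at 1.51 to 8.73 CPM under Ad-Lib feeding and 6.15 to 20.3 CPM with TAN, which overlap, while B cell droplets averaged 29.9 CPM. Its call was lost by DESeq2 (adjusted p = 0.0746) and without TAN replicate 2 or 4. All 12 immune genes had a UMI, with a sum of 61.6 to 130 CPM under Ad-Lib feeding and 37.2 to 65.2 CPM with TAN (5181 to 19757 CPM in B cell droplets, which hold some of these genes as their own), and C1qa, a macrophage gene, was called lower at 9.74 to 13.9 and 3.52 to 5.93 CPM, against a mean of 71.5 CPM in B cell droplets (lost by DESeq2, with doublets removed, among cells with 5000 to 20000 UMIs, and without any of Ad-Lib replicates 1, 3 and 7 and TAN replicates 2 and 4). The sums of the 7 endothelial, 4 Schwann and 4 tendon genes stayed at or under 30.8 CPM in every library, and none of the genes was at 0 in all of them. In B cell droplets they summed to 34.3 to 424, 0 to 8.57 and 0 to 0.360 CPM. The 4 mesothelial genes summed to 4.62 to 29.9 CPM under Ad-Lib feeding and 20.3 to 43.2 CPM with TAN, above the 0 to 2.50 CPM of B cell droplets in every library, and Krt19, a keratin, led them with a mean of 20.6 CPM. The 6 mural genes summed to 10.5 to 45.3 CPM in 7 libraries and to 172 CPM in TAN replicate 8, where Rgs5, a pericyte gene, alone lay at 122 CPM, against 4.99 to 183 CPM for the 6 in B cell droplets. The part of these cells and of free RNA in the changes above was not tested. Of the genes in these lists that could be tested, 1 of 4 adipocyte genes was higher (median log2 change 0.51) and 1 of 5 immune genes lower (-0.93). Neither of 2 mural genes (0.97) nor the 1 mesothelial gene (0.78) was called. Over all genes tested 0.111% were higher and 0.354% lower. In summed counts a change in the mix of cells within the class and a change within each cell cannot be told apart.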

How the data were processed

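The authors deposited raw UMI counts per gene and cell barcode, 1 table for each of 8 libraries (4 Ad-Lib, 4 TAN), made on mm10 (GRCm38) with Cell Ranger. The submitters' processing notes name version 3.0.2 and the file headers 6.0.1. Barcodes with 700 to 30000 UMIs, 200 to 8000 genes and at most 10% mitochondrial UMIs were kept. Doublets were not removed. Counts of each class were added up within a library and compared with edgeR 4.0.16 (quasi-likelihood, TMM, filter on low counts), the 10 genes of the rule left out, and again with DESeq2 1.42.0. Library totals include all genes. Shares were compared by exact permutation over 70 assignments. Differences between classes were tested as the interaction of class and feeding with the library as a block. Scripts were tested on simulated data. Alternatives covered scaling (RLE), filters, thresholds, depth, doublets and each library left out. Thinned shares are the calculated chance that at least 1 UMI remains in 3000. B cell droplets held at least 5 UMIs of Cd79a and Cd79b and no Pdgfra. Gene positions came from GENCODE M21 (32158 of 32285 identifiers matched), and promoter windows from RefSeq. Of 358 list genes 2 with a duplicated symbol were not used. The cells, the lists and the tests were chosen with earlier results of these data known. Genes were named as follows: up to 12 called genes per direction without overlap between groups, up to 2 per direction and list, 4 per direction for each difference between classes, and 10 per direction for the description of classes (at least 20 CPM in the class where the gene was higher, same direction in 8 libraries), all by smallest p or largest ratio, plus the markers, Il33, Fabp4 and Cd36. Wnt2, Mt1, Ier2, Klf4, Nr4a1, Tsc22d3 and Il6 fall outside this rule and were chosen after their values were seen.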

Additional observations from a re-analysis of the deposited data

Results flagged for a closer look

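Of 268 groups of 4 libraries checked, 13 held a library far from the other 3, and chance flags about 1 in 20. Ad-Lib replicate 7 stood high for Postn (202 CPM, the others at 45.8 to 67.2), Col6a3 (272 CPM), Dnajb1 (94.2 CPM) and C1qa (13.9 CPM). TAN replicate 8 stood high for Fabp4 (484 CPM, the others at 196 to 237), Rgs5 (122 CPM) and Cldn15 (6.92 CPM). Ad-Lib replicate 1 stood high for Prss23 (610 CPM), Rgs5 (27.0 CPM) and Olfm2 (0.504 CPM, the others at 0). Ad-Lib replicate 5 stood high for Bmp7 (84.2 CPM) and Thrsp (8.73 CPM), and TAN replicate 2 for Maff (66.0 CPM).

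The change under TAN differed between the Dpp4+ Pi16+ cells and Col15a1+ cells, by the test of the difference, for Nfkbiz (1.18), Mt2 (1.11), Btg2 (0.88), Atf3 (0.83), Igfbp5 (-1.14), Postn (-1.25), Cdh13 (-1.36) and Sfrp2 (-1.63). Against Gdf10+ cells it differed for Col6a6 (1.42), Cdkn1c (1.06), Nfkbiz (0.87), Btg2 (0.72), Lgmn (-0.73), Prss23 (-0.86), Apoe (-0.95) and Ifit3 (-1.14). All are differences of log2 changes.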

How the results depend on the processing

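No paired analysis was possible because the groups share no replicate numbers. The shares of Dpp4+ Pi16+ cells kept their direction and did not pass under any alternative. With 1 library left out, the TAN minus Ad-Lib difference in their share of cells kept, -2.40 percentage points, ranged from -3.32 (without Ad-Lib replicate 5) to -0.94 (without Ad-Lib replicate 1) and was -1.33 without TAN replicate 6. The difference in their share of stromal cells, 4.42 percentage points, ranged from 2.06 (without Ad-Lib replicate 5) to 6.88 (without Ad-Lib replicate 1), with 2.31 without TAN replicate 4 and 2.47 without Ad-Lib replicate 7. The number of called genes in Dpp4+ Pi16+ cells, 46, was 159 without a filter on low counts and 9 to 75 with 1 library left out. The number of differences from Col15a1+ cells, 55, was 158 without the filter, 24 by DESeq2 and 21 to 75 with 1 library left out, and that from Gdf10+ cells, 44, was 144, 25 and 25 to 75. DESeq2 gave no adjusted p for 32 of the 55 and 18 of the 44 genes. Without the filter more genes are tested. The cause of the other changes was not tested. Of markers whose change did not pass, Anxa3 changed sign with at least 5 Pi16 and Dpp4 UMIs (-0.0056) and with replicates 1 to 4 and 5 to 8 as a term (-0.0021), an alternative chosen after seeing the data. With 1 library left out, the log2 change ranged from -0.049 to 0.050 for Anxa3, from -0.24 to 0.0023 for Cd55 and from -0.039 to 0.15 for Sema3c. With doublets removed Fabp4 passed (log2 change 0.88, edgeR adjusted p = 0.0139). It also passed without Ad-Lib replicate 5 (log2 change 1.25, edgeR adjusted p = 0.0482) and without the filter on low counts. It did not pass by DESeq2 (adjusted p = 0.577), with at least 5 Pi16 and Dpp4 UMIs (log2 change 0.73, edgeR adjusted p = 0.289), among cells with 5000 to 20000 UMIs (0.82, 0.456) or without TAN replicate 8, where its change was smallest (0.63, 0.357).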
